A study of Homo sapiens and Mus musculus with 24 samples.

Results

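Human lncRNAs whose GENCODE symbol ends in -DT (divergent transcript) were compared with the protein-coding genes named before the suffix, under UV irradiation, in 2 human cell lines. Of the 58381 genes in the human count tables, 580 carried a -DT symbol, and 344 of these reached a mean of at least 0.5 CPM (read counts scaled to the library total) in the nonirradiated samples of HepG2 or HEK293. These 344 members were made up of 266 that passed in HepG2 and 291 that passed in HEK293, with 213 in both. The other 236 stayed below 0.5 CPM, and 216 of them still had at least 1 read. The lowest member was ZC3H12A-DT at 0.512 CPM and the highest -DT gene left out was STK4-DT at 0.494 CPM.

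The study measured the RNA that stays in the aqueous phase after acid phenol-chloroform (TRIzol) extraction of cultured cells. Short-wave UV light bonds RNA to the proteins touching it, and RNA bonded to protein leaves the aqueous phase, so that fewer reads are left of such RNA upon irradiation. UV adducts on recovered RNA can also block reverse transcription, and reads lost in these 2 ways cannot be told apart here. HepG2, a human hepatocellular carcinoma line, and HEK293, a human embryonic kidney line (HEK293T in the culture methods), were each sequenced as 3 UV-irradiated and 3 nonirradiated samples, which the study describes as biological replicates. In such bulk samples fewer cells and less RNA per cell cannot be told apart. Both lines received the same lysate heating and removal of rRNA, and no gene was altered. HepG2 libraries were read on another sequencer model than HEK293 libraries, so that line and sequencer cannot be told apart in any comparison of the lines.

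Many mammalian promoters start transcription in both directions. One direction gives the mRNA, and the other gives an upstream antisense transcript that is usually short-lived, is cut early at poly(A) sites and is removed in the nucleus by the RNA exosome with its adaptors. The -DT genes are the spliced or longer transcripts of this kind that were stable enough to be annotated. Because both transcripts start from the same open promoter, the pair shares its chromatin but not its RNA sequence.

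Most members lay head to head with their mRNA gene. In all, 343 lay on the strand opposite to their mRNA gene and 1 on the same strand. The distance between the annotated starts, counted positive where the genes point away from each other with a gap, had a median of 101.5 bases (quartiles -35.5 and 214), and 235 of the 344 starts lay within 300 bases of the mRNA's start. Within 1000 bases were 311, and 14 lay over 5000 bases apart, so that a common promoter is not given for every pair. The starts ran past each other in 97 pairs. The lncRNAs had a median exon length of 1690.5 bases against 5584 for the mRNAs, and 86 of them were a single exon block. Exon bases were shared with the own mRNA gene in 85 members and with any gene in 154. A read there was counted for every gene it overlapped, and the sources disagree on whether the kit kept strand, so the reads of these bases cannot be told apart between the genes.

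RefSeq promoter windows (GRCh38.p14, 250 bases before to 50 after a start) were matched to 263 of the lncRNAs and 288 of the mRNAs. For 7 pairs whose starts face away from each other across a short gap, the shared promoter is given below on the lncRNA strand. RAB30-DT is shown because the study followed it up, IL6ST-DT, SPAG16-DT and LRIG2-DT because they had large losses, and CKAP2-DT, TBC1D22A-DT and KDM7A-DT because they rose. Capitals at the left mark the first 20 bases of the mRNA exon (as the complementary strand), capitals at the right mark the annotated lncRNA exon, and the lower-case stretch between them is the gap between the starts.
RAB30-DT (chr11:83071904-83072115, plus strand): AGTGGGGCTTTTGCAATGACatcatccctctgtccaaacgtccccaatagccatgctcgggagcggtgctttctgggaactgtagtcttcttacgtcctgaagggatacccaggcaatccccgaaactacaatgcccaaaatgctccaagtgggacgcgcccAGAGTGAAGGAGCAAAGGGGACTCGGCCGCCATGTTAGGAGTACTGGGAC
IL6ST-DT (chr5:55994974-55995216, plus strand): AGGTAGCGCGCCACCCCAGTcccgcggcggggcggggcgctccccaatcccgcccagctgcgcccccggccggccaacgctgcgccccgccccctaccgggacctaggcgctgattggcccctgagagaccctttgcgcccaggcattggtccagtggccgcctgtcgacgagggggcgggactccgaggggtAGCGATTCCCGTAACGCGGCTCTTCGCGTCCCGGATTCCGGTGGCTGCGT
SPAG16-DT (chr2:213284160-213284398, minus strand): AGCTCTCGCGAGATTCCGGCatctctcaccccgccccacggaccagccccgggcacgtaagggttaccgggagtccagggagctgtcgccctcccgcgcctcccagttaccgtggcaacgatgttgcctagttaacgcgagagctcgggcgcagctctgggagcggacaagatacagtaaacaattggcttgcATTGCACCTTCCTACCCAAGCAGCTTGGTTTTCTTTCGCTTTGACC
LRIG2-DT (chr1:113073053-113073228, minus strand): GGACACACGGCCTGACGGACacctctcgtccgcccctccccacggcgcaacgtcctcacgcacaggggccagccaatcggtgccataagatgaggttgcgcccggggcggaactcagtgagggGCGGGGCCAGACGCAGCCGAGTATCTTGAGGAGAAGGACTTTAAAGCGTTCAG
CKAP2-DT (chr13:52455297-52455448, minus strand): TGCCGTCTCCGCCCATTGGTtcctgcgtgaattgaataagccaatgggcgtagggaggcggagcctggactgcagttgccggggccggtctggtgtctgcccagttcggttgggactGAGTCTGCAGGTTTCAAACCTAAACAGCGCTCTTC
TBC1D22A-DT (chr22:46762479-46762636, minus strand): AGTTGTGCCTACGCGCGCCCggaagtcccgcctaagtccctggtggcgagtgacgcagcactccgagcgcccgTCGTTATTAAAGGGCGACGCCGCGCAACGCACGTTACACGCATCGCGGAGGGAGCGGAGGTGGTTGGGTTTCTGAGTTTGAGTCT
KDM7A-DT (chr7:140177016-140177310, plus strand): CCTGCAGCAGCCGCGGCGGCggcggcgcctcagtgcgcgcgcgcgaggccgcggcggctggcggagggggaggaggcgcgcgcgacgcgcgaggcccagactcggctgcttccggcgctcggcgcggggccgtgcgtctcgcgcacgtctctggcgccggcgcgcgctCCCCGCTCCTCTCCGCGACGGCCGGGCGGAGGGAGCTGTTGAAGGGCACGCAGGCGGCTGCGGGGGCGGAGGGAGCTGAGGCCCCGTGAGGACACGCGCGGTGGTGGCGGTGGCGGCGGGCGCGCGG

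The windows of the pairs were rich in G and C. The median GC content was 68% in the 288 mRNA windows and 69% in the 263 lncRNA windows, against 61.7% in the windows of 19000 genes. Searched on both strands, the GC box letters GGGCGG stood in 72.9% of the mRNA windows and 54.5% of the windows of all genes, the ETS core CCGGAAG in 27.1% and 13%, and the NRF1 palindrome in 3.47% and 1.64%. The TATA letters TATAAA stood in 5.21% of the mRNA windows and 10.2% of all windows, and the CCAAT letters in 39.2% and 36.2%. Windows of protein-coding genes held these 5 motifs in 59.5% (GC box), 14.4% (ETS), 1.75% (NRF1), 9.75% (TATA) and 36.6% (CCAAT). The lncRNA windows held them in 74.1%, 23.6%, 4.56%, 4.18% and 31.2%, so that CCAAT was below the share of all windows there and above it in the mRNA windows. No one of these letter strings contains another. A match describes letters in the window only.

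The libraries held 36573473 to 53511592 reads counted to genes in HepG2 and 9444707 to 11188033 in HEK293. The labels fitted the cells: the liver gene ALB was at 10825 to 15287 CPM in nonirradiated HepG2 and at most 0.106 in HEK293, and NEFL, a neurofilament gene known from HEK293, was at 253 to 550 CPM in HEK293 and 0 in HepG2. Of markers of other cells, the endothelial gene PECAM1 reached 9.25 to 12.7 CPM in HepG2, and the others stayed at or below 1.14 CPM. Except in irradiated HepG2, the samples numbered 1 stood apart from the others of their group. The nonirradiated HepG2 sample 1 was the farthest of its group from the median for 68.8% of all genes tested and 58.6% of members. The HEK293 samples 1 were so for 53% (nonirradiated) and 56.6% (UV) of all genes. In irradiated HepG2 the shares of all genes were 35.4%, 32.1% and 32.5% for samples 1, 2 and 3.

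In HEK293 the samples with the same number deviated together, with Pearson's r over all genes of 0.654, 0.368 and 0.461 for numbers 1, 2 and 3. Samples 2 and 3 of the opposite groups also correlated, at 0.262 and 0.281, and samples 1 correlated negatively with the others. Deviations were taken from the group mean and cancel within each group, so these values are tied to one another. Samples 1 that stand apart in both groups shape all of them, and a separate link of samples 2 or 3 was not tested. As every same-numbered pair was over 0.1, values with the number as a block are given where they change a count.

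Scaling decides the zero of every fold change below. Trimmed-mean (TMM) factors ran from 1.54 to 1.59 in nonirradiated and from 0.619 to 0.655 in irradiated HepG2 samples, and from 1.25 to 1.37 and 0.698 to 0.809 in HEK293. Against scaling by library size alone, TMM raised the median log2 fold change of all genes by 1.30 in HepG2 and 0.76 in HEK293. "Decreased" and "increased" therefore mean relative to the bulk of genes. With library sizes alone the members split 210 decreased to 8 increased in HepG2, and 112 to 9 in HEK293. The share of all genes was not counted under that scaling, so nothing about the members is read from these splits.

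In nonirradiated cells the lncRNAs were scarce beside their mRNAs. Levels per exon length are given as RPKM, the CPM per kilobase of exon. The members that passed in HepG2 had a median of 1.40 RPKM and their tested mRNAs 6.70, and in HEK293 the medians were 1.41 and 7.97 RPKM. Within pairs the mRNA stood at a median of 4.57 times the lncRNA in HepG2 (255 pairs) and 5.58 times in HEK293 (290 pairs). The lncRNA was above its mRNA in 28 pairs in HepG2 and 30 in HEK293. The level of the lncRNA followed that of the mRNA only loosely, with a Spearman's ρ across pairs of 0.13 in both lines.

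The 6 members with the highest level were MVP-DT, H2AZ1-DT, NQO1-DT, CTDSPL2-DT, STX5-DT and KPNB1-DT. MVP-DT, beside the gene of the major vault protein, stood at 24.0 RPKM in HepG2 and 71.3 in HEK293. H2AZ1-DT, beside the gene of the histone variant H2A.Z, stood at 15.8 and 54.4 RPKM, and NQO1-DT, beside a quinone reductase gene, at 30.6 and 22.7. All 6 share exon bases with some gene, so these levels are uncertain. Overlaps summed gene by gene came to 2273 bases for MVP-DT (4039 exon bases), 517 for STX5-DT (765) and 429 for NQO1-DT (592). A base shared with several genes counts for each of them.

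Of the 344 members, 53 reached 0.5 CPM in HepG2 only and 78 in HEK293 only. Since this level chose the members, no test of it between the lines is given. SPAG16-DT had 440, 435 and 347 reads in nonirradiated HepG2 and 0 in each nonirradiated HEK293 sample. Its mRNA, SPAG16, which encodes a protein of the ciliary axoneme, was listed in both lines, at 1.12 and 2.42 RPKM. NDUFV1-DT likewise had 1082, 1269 and 1036 reads in HepG2 and 0 in HEK293, while NDUFV1, a subunit of respiratory complex I, was at 15.9 and 29.1 RPKM. CABP1-DT was the reverse, with 16, 22 and 24 reads in HEK293 and 0 in nonirradiated HepG2. A count of 0 allows up to 3 reads, or 0.318 CPM in the shallowest HEK293 sample.

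The first comparison asks which divergent lncRNAs lose reads in the aqueous phase upon irradiation. In HepG2, 95 of the 266 members decreased (35.7%) and 74 increased (27.8%) in edgeR's quasi-likelihood test at a Benjamini-Hochberg adjusted p below 0.05. Of all 20117 genes tested, 40.7% decreased and 38.1% increased. The median log2 fold change of the members was -0.08, equal to that of all genes, against -0.63 for all 4143 lncRNAs, -0.34 for 910 antisense lncRNAs named -AS and -1.85 for 407 intergenic lncRNAs named LINC. The 10th to 90th percentiles of the members ran from a log2 fold change of -2.18 to 1.14. Protein-coding genes had a median of 0.17, and the 318 tested mRNAs of the pairs had 0.03, with 120 decreased and 135 increased.

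In HEK293, 33 of the 291 members decreased (11.3%) and 44 increased (15.1%), against 26.4% and 24.2% of 20472 genes. With the replicate number as a block, 56 decreased and 68 increased (19.2% and 23.4%), against 35.3% and 32.7% of all genes. Without the UV sample 3 or the nonirradiated sample 3 only 17 or 18 decreased, and without both samples numbered 1, a choice made after seeing the data, 47 decreased and 57 increased. The share of all genes was not counted in these fits. The median was -0.02 for the members, -0.28 for 3923 lncRNAs, -0.12 for 952 -AS lncRNAs and -0.29 for 218 LINC lncRNAs. In this line 153 of the 291 members had a mean below 20 reads in nonirradiated HEK293 samples, and none of the 266 did in HepG2. The part of depth in the lower counts was not tested. Members were selected on the nonirradiated level. With 0.5 CPM asked instead of the mean over all samples, 84 decreased and 69 increased in HepG2, and 32 and 43 in HEK293. The share of all genes was not counted under that filter either.

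**Figure D1:**
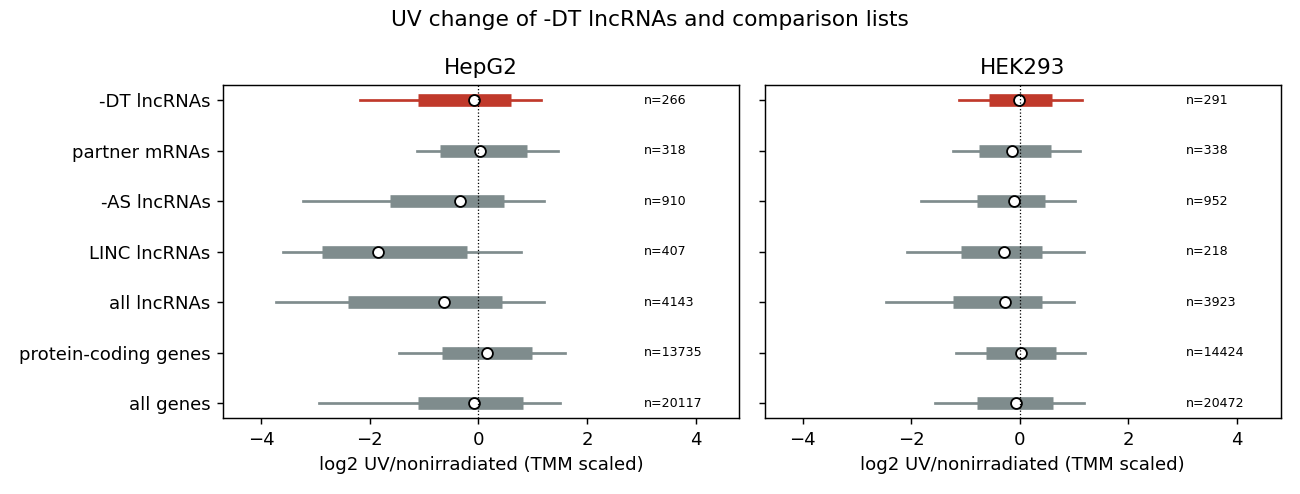
Log2 UV/nonirradiated (x axis, TMM scaled) of -DT lncRNAs and 6 comparison lists in HepG2 (left) and HEK293 (right). Circles are medians, thick bars the quartiles and thin lines the 10th to 90th percentiles over the genes tested (n at the right). The -DT lncRNAs centre near 0 with medians of -0.08 and -0.02, while LINC lncRNAs in HepG2 centre at -1.85.

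RAB30-DT lies 143 bases upstream of RAB30, which encodes a small GTPase of the Golgi apparatus, and it was one of the lncRNAs the study chose for follow-up from these HepG2 samples. Its TMM-normalised CPM in HepG2 was 9.23, 10.8 and 11.1 without and 8.47, 6.65 and 7.47 with UV. All irradiated samples lay below all nonirradiated ones, and the log2 fold change was -0.46 ± 0.12 (SE, edgeR adjusted p = 0.00615). Because the study picked it on these samples, this is not independent evidence of a loss. The study also measured this lncRNA by RT-qPCR in HepG2, and reports that hexanediol treatment restored its recovery after UV. The mRNA RAB30 went from 4.13, 4.71 and 4.72 to 2.72, 2.72 and 2.99 CPM, with a log2 fold change of -0.69 ± 0.12 (edgeR adjusted p = 0.000753).

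In HEK293 the levels of RAB30-DT overlapped, at 9.64, 10.9 and 9.62 CPM without and 14.2, 13.0 and 9.73 with UV. The log2 fold change was 0.29 ± 0.19 (edgeR adjusted p = 0.228). RAB30 mRNA fell there as well, by 1.14 ± 0.29 on the log2 scale (edgeR adjusted p = 0.00918, and 0.0508 without the UV sample 2). Per exon length RAB30-DT was the more abundant of the pair, at 6.72 against 0.601 RPKM in HepG2 and 5.4 against 0.548 in HEK293. The exon overlaps of RAB30-DT with genes other than RAB30, summed gene by gene, came to 435 bases.

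The largest losses in HepG2 were seen in SPAG16-DT, LRIG2-DT, IL6ST-DT, VPS33B-DT, RWDD3-DT and DYNLL2-DT, named by rule from members of at least 2 CPM whose groups did not overlap. SPAG16-DT went from 7.81, 5.11 and 5.27 CPM to 0.557, 0.340 and 0.428, a log2 fold change of -3.75 ± 0.26 (edgeR adjusted p = 1.88e-06). LRIG2-DT, beside the gene of a leucine-rich repeat membrane protein, went from 13.1, 9.60 and 9.54 CPM to 1.36, 0.793 and 1.02. In both, all irradiated samples lay far below all nonirradiated ones.

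IL6ST-DT starts 174 bases from IL6ST, the gene of gp130, the signalling subunit that receptors of the interleukin-6 family share. It went from 6.58, 4.60 and 4.74 CPM to 0.433, 0.491 and 0.658, with a log2 fold change of -3.32 ± 0.23. IL6ST mRNA went from 143, 184 and 182 CPM to 85.3, 77.4 and 77.0 (-1.08 ± 0.11). RWDD3-DT, beside an enhancer of SUMO conjugation, went from 21.1, 10.8 and 11.5 to 1.89, 1.89 and 1.97 CPM, and here the nonirradiated sample 1 was high. VPS33B-DT (-2.95 ± 0.38) and DYNLL2-DT (-2.77 ± 0.25) complete the group.

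The members that rose most in HepG2 by the same rule were TMEM18-DT, STX5-DT, RNASEH1-DT, EMSY-DT, TBC1D22A-DT and SP2-DT, with log2 fold changes from 1.63 to 1.86. STX5-DT, beside the gene of a Golgi SNARE protein, went from 6.37, 7.81 and 7.50 CPM to 27.6, 25.3 and 23.8 (1.82 ± 0.10, edgeR adjusted p = 6.59e-07). RNASEH1-DT, beside the gene of the nuclease that cuts RNA paired to DNA, went from 4.29, 5.81 and 5.80 CPM to 17.9, 18.5 and 18.0. The groups were apart for all 6. With library sizes alone EMSY-DT, TBC1D22A-DT and SP2-DT lost their calls, at log2 fold changes of 0.36, 0.36 and 0.32. RNASEH1-DT and TMEM18-DT share 125 and 151 exon bases with their own mRNAs, which also rose.

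In HEK293 the rule named ZKSCAN2-DT, CEP192-DT, NCMAP-DT, CAPN10-DT, EPM2A-DT and GOT1-DT as the largest losses, with log2 fold changes from -2.80 to -1.65. ZKSCAN2-DT, beside a zinc finger gene, went from 5.24, 3.88 and 3.94 CPM to 0.450, 0.580 and 0.774. That rests on 62, 48 and 52 reads against 3, 5 and 7. All 6 also decreased in HepG2, where the log2 fold changes ran from -2.07 to -0.93. EPM2A-DT, beside the gene of the glycogen phosphatase laforin, had log2 fold changes of -1.80 ± 0.18 in HEK293 and -1.90 ± 0.14 in HepG2, but its annotated start lies 63386 bases from that of EPM2A.

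The members that rose most in HEK293 by the same rule were CKAP2-DT, STX5-DT, CABP1-DT, RNASEH1-DT, PGLS-DT and BTF3-DT, with log2 fold changes from 1.39 to 1.64. STX5-DT went from 11.1, 9.55 and 7.72 CPM to 38.4, 24.1 and 24.7, and RNASEH1-DT from 5.16, 4.29 and 4.01 to 16.6, 11.6 and 13.3. STX5-DT and RNASEH1-DT were in the group of both lines. With library sizes alone CKAP2-DT, PGLS-DT and BTF3-DT lost their calls, at log2 fold changes of 0.90, 0.79 and 0.64 (edgeR adjusted p = 0.0673, 0.084 and 0.161). STX5-DT shares exon bases with other genes, as given above.

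**Figure D2:**
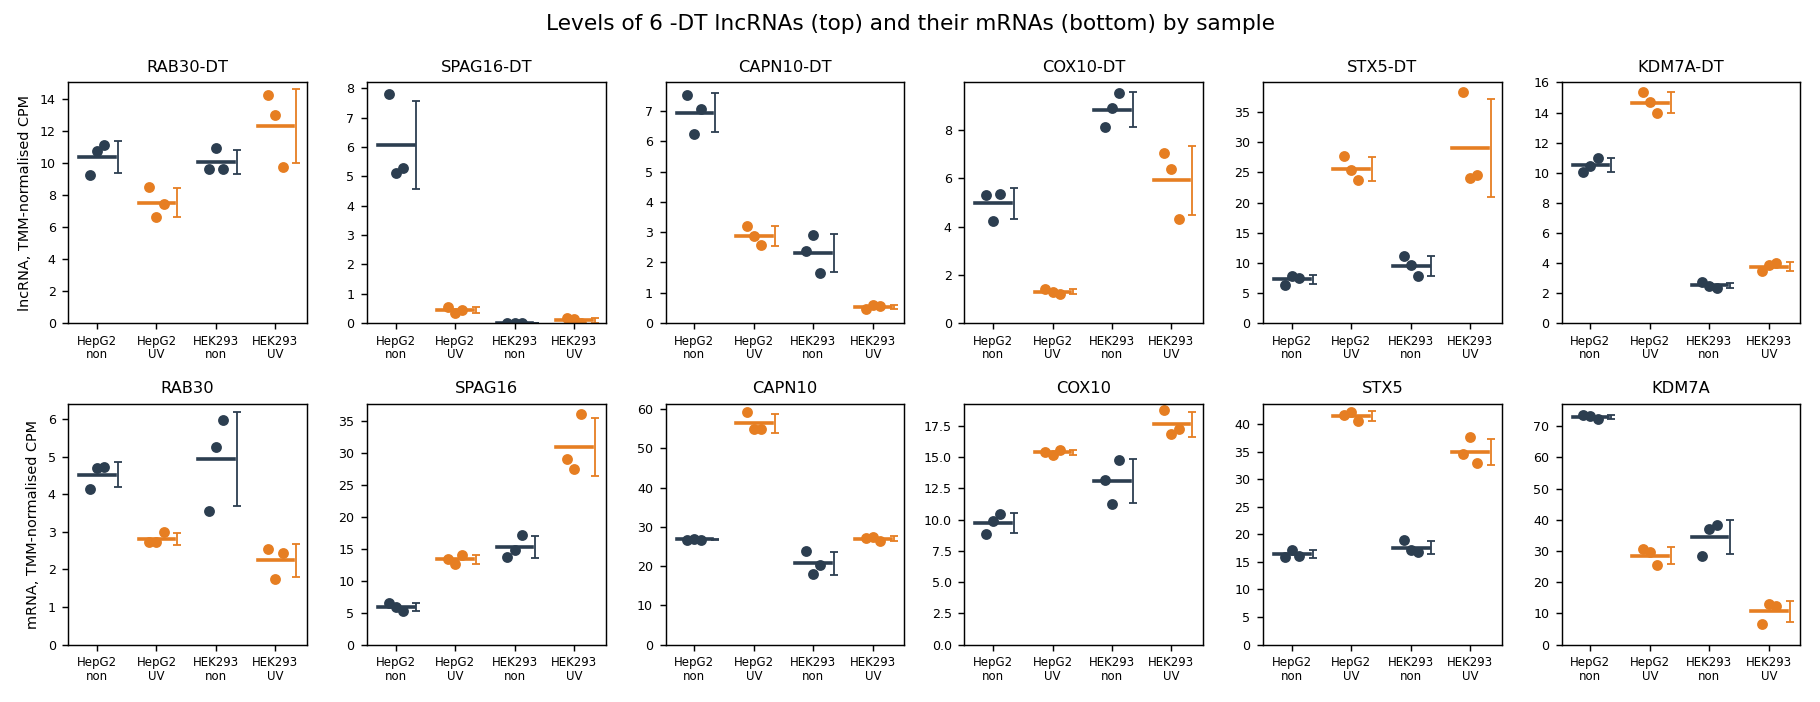
TMM-normalised CPM (y axis from 0, a scale of its own in each panel) of 6 -DT lncRNAs (top) and their mRNAs (bottom) in nonirradiated (dark) and UV-irradiated (orange) HepG2 and HEK293. Points are the 3 samples, horizontal lines their mean and whiskers 1 SD. SPAG16-DT is at 5.11 to 7.81 CPM in nonirradiated HepG2 and at most 0.557 with UV while SPAG16 mRNA rises, and in HepG2 KDM7A-DT rises while KDM7A mRNA falls.

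The second comparison asks whether the reads of a lncRNA and of the mRNA it is named for changed alike. Their UV changes were nearly unrelated across pairs. In HepG2, Spearman's ρ between the log2 fold changes of lncRNA and mRNA was 0.09 over 255 pairs and -0.13 over the 82 pairs in which neither gene shares an exon base. In HEK293 it was 0.12 over 290 pairs and -0.01 over 104. Pairs that share exon bases with each other, and so share counted reads, had 0.11 (68 pairs) and 0.26 (77 pairs). All of these are across genes that share libraries and scaling, and genes are not independent replicates.

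Counted by calls, 35 HepG2 pairs decreased together, 37 increased together and 58 were called in opposite directions, 33 of them with the lncRNA down and the mRNA up. In HEK293, 17 decreased together, 16 increased together and 15 were opposite. Of the members tested, 35.7% decreased and 27.8% increased in HepG2, and 11.3% and 15.1% in HEK293. Of the tested mRNAs of the pairs it was 37.7% and 42.5% in HepG2, and 35.5% and 28.1% in HEK293. Joint calls were not counted in the -AS pairs, so nothing is read from these counts of pairs. The median difference of the log2 fold changes, lncRNA minus mRNA, was -0.23 in HepG2, with the lncRNA the lower in 148 of 255 pairs, and -0.35 without shared exon bases. In HEK293 it was 0.01, with the lncRNA the lower in 141 of 290. The -AS lncRNAs against the genes they are named for had -0.19 (851 pairs) and 0.02 (894 pairs).

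The log2 ratio of lncRNA to mRNA counts in each sample needs no scaling between samples. It was lower in all irradiated than in all nonirradiated samples for 113 HepG2 pairs (44.3%) and higher for 65 (25.5%), against 42% and 23.6% of the -AS pairs. In HEK293 it was lower for 62 (21.4%) and higher for 79 (27.2%), against 20.5% and 22.6%. An exact two-sided permutation test of 3 against 3 samples gives p = 0.1 at the smallest, so that no single ratio can pass 0.05.

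**Figure D3:**
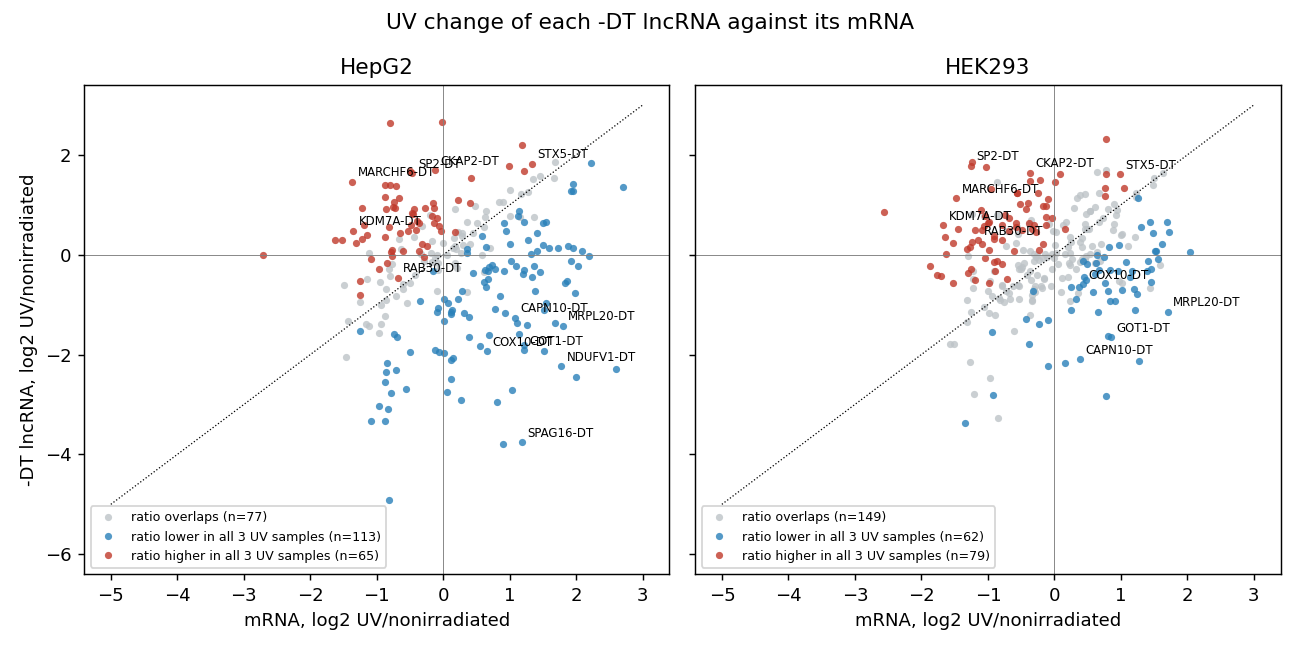
Log2 UV/nonirradiated of each -DT lncRNA (y axis) against that of its mRNA (x axis) in HepG2 (255 pairs) and HEK293 (290 pairs). Blue and red points are pairs whose lncRNA to mRNA ratio was lower or higher in all 3 irradiated samples (113 and 65 in HepG2, 62 and 79 in HEK293), grey points overlap, and the dotted line marks equal change. The cloud does not follow the line.

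The widest negative differences in HepG2 were those of SPAG16-DT, NDUFV1-DT, VPS33B-DT and EOLA2-DT, at -4.93, -4.01, -3.76 and -3.45 on the log2 scale. NDUFV1-DT went from 19.2, 14.9 and 15.7 CPM to 3.87, 3.55 and 3.16 (-2.23 ± 0.13), while NDUFV1 mRNA went from 38.2, 43.3 and 44.6 to 145, 147 and 139 (1.78 ± 0.08). In each of these 4 pairs the mRNA rose, and SPAG16 mRNA went from 6.60, 5.84 and 5.30 CPM to 13.5, 12.6 and 14. VPS33B serves vesicle sorting.

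In HEK293 the rule named MRPL20-DT, GOT1-DT, CAPN10-DT and CCNO-DT. MRPL20-DT went from 3.89, 2.91 and 3.33 CPM to 1.35, 2.09 and 1.11 (-1.15 ± 0.30, edgeR adjusted p = 0.0121, and 0.0551 without the UV sample 3), and MRPL20 mRNA, which encodes a protein of the mitochondrial ribosome, from 76.8, 45.2 and 42.6 to 254, 140 and 144 (1.70 ± 0.29). The ratio lay lower in every irradiated sample. MRPL20-DT, GOT1-DT and CAPN10-DT had the same orientation in both lines. In HepG2 MRPL20-DT had a log2 fold change of -1.42 ± 0.22, against 1.79 ± 0.11 for MRPL20 mRNA. GOT1-DT, beside the gene of cytosolic aspartate aminotransferase, had a log2 fold change of -1.91 ± 0.25 in HepG2 and -1.65 ± 0.33 in HEK293, against 1.21 ± 0.09 and 0.85 ± 0.16 for GOT1 mRNA. CAPN10-DT, beside a calpain protease gene, had -1.26 ± 0.13 and -2.09 ± 0.38, and CAPN10 mRNA 1.07 ± 0.07 and 0.38 ± 0.15 (edgeR adjusted p = 0.0548 in HEK293, 0.0226 without the nonirradiated sample 1 and 0.000752 with the replicate block). The starts of CAPN10-DT and CAPN10 are 17 bases apart. CCNO-DT (-1.12 ± 0.41, edgeR adjusted p = 0.0458) lost its call without UV sample 2 or 3 or any 1 nonirradiated sample, with adjusted p from 0.055 to 0.153.

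The opposite orientation, a lncRNA that rose above its mRNA, was named in HepG2 for FLVCR1-DT, EMSY-DT, SP2-DT and KDM7A-DT, with differences of 2.21, 2.17, 2.1 and 1.84. KDM7A-DT is an unspliced transcript of 2457 bases beside the gene of a histone lysine demethylase. It went from 10, 10.4 and 11 CPM to 15.3, 14.7 and 13.9 in HepG2 (0.48 ± 0.08, edgeR adjusted p = 0.000535), while KDM7A mRNA went from 73.5, 73.3 and 72.3 to 30.5, 29.7 and 25.4 (-1.36 ± 0.08). With library sizes alone the fold change of KDM7A-DT itself was -0.82, since that scaling moves all genes down, but the ratio to its mRNA does not depend on it.

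KDM7A-DT was named again in HEK293, where its own log2 fold change was 0.59 ± 0.22 (edgeR adjusted p = 0.0517, and 0.0217 with the replicate block), with UBA6-DT, MARCHF6-DT and CKAP2-DT, at differences of 2.27, 2.00, 2.61 and 2.00. MARCHF6-DT went from 1.86, 2.35 and 2.73 CPM to 5.10, 4.64 and 5.53 (1.13 ± 0.24), and the mRNA of MARCHF6, a ubiquitin ligase of the endoplasmic reticulum, from 204, 191 and 204 to 71.0, 68.9 and 75.5 (-1.47 ± 0.12). The same pair differed by 2.83 in HepG2. UBA6, a ubiquitin-activating enzyme, had a log2 fold change of -1.65 ± 0.12 in HEK293 and -1.15 ± 0.09 in HepG2. UBA6-DT was at 0.35 ± 0.26 (edgeR adjusted p = 0.284, and 0.037 with the block) and 0.40 ± 0.09.

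Pairs grouped by the kind of mRNA were few. For mRNAs of mitochondrial proteins (symbols starting MRPL, MRPS, NDUF, COX, ATP5, TIMM or TOMM), 5 of 6 mRNAs rose and none fell in HepG2, while 3 of 5 lncRNAs fell and none rose. Of all protein-coding genes tested 45.9% rose in HepG2, and of all members 35.7% fell. Those 3 were MRPL20-DT (-1.42 ± 0.22), NDUFV1-DT and COX10-DT (-1.93 ± 0.16), and MRPS35-DT (-0.36 ± 0.38) and NDUFA6-DT (-0.02 ± 0.25) did not pass. In HEK293, 5 of 6 mRNAs rose, 1 fell (MRPS30) and 2 of 4 lncRNAs fell. A further class was mRNAs whose symbol starts with ZNF, zinc finger genes that leave out others such as ZKSCAN2. In HepG2, 7 of its 14 mRNAs fell and 2 rose, against 34.2% of protein-coding genes that fell. Of its 12 lncRNAs tested there, 6 fell and 2 rose, against 35.7% of all members and 49.9% of all lncRNAs that fell. In HEK293, 6 of the 14 mRNAs fell and 2 rose, and 2 of 12 lncRNAs fell. Of all protein-coding genes tested in HEK293 27.9% rose and 25.8% fell, and of all members 11.3% fell.

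The mRNAs of the machinery known to act on divergent transcripts were read in the same libraries. Of 18 genes of the nuclear exosome and its adaptors, 12 increased and 5 decreased in HepG2 (median log2 fold change 0.62), and 9 increased and 3 decreased in HEK293 (median 0.49). Of 14 Integrator subunits, 9 increased and 4 decreased in HepG2 (median 0.39), and 3 increased and 3 decreased in HEK293 (median 0.10). Of all protein-coding genes 45.9% increased and 34.2% decreased in HepG2, and 27.9% and 25.8% in HEK293. These are levels of mRNA in the aqueous phase and say nothing of protein.

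The members varied with base content and length in both lines, and with the number of exon blocks mainly in HepG2. Cut into 3 groups of like size by the share of U in their exons, the HepG2 members with the least U (13.7% to 23.8%) had a median log2 fold change of 0.31, with 16 decreased and 38 increased of 89. The middle group had -0.38, with 39 decreased and 21 increased of 89. The group with the most U (27.2% to 38.9%) had -0.32, with 40 decreased and 15 increased of 88. In HEK293 the medians of the low, middle and high group were 0.44, -0.08 and -0.29, with 5 decreased and 24 increased of 97 in the low-U group and 20 and 5 of 97 in the high-U group. Spearman's ρ with U content was -0.34 over 266 members in HepG2 and -0.32 over 291 in HEK293, as against -0.38 for all lncRNAs in both lines and -0.39 and -0.43 for protein-coding genes. By GC content the low, middle and high groups of HepG2 members had medians of -0.72, 0.03 and 0.20. In HEK293 the medians were -0.29, -0.06 and 0.46. Spearman's ρ with GC content was 0.34 in HepG2 and 0.31 in HEK293. These values are across genes, which share libraries, and carry no test.

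Length, U content and GC content were not separated here. The shortest of 3 groups of members had median log2 fold changes of 0.22 in HepG2 and 0.36 in HEK293, and the longest group -0.51 and -0.33, with ρ against log2 length of -0.32 and -0.29. The study, which used transcript lengths and lncRNAs of all kinds, reported no correlation with length. Members of 1 exon block had a median of 0.36 in HepG2, with 11 decreased and 24 increased of 63, and members of 2 or more had -0.28, with 84 and 50 of 203. In HEK293 the corresponding medians were 0.07 and -0.02, with 8 decreased and 15 increased of 81, and 25 and 29 of 210. ρ with nonirradiated RPKM was 0.13 and 0.18. Pairs with a gap between the starts had medians of -0.14 in HepG2 and 0.00 in HEK293, and pairs that ran past each other 0.00 and -0.02.

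**Figure D4:**
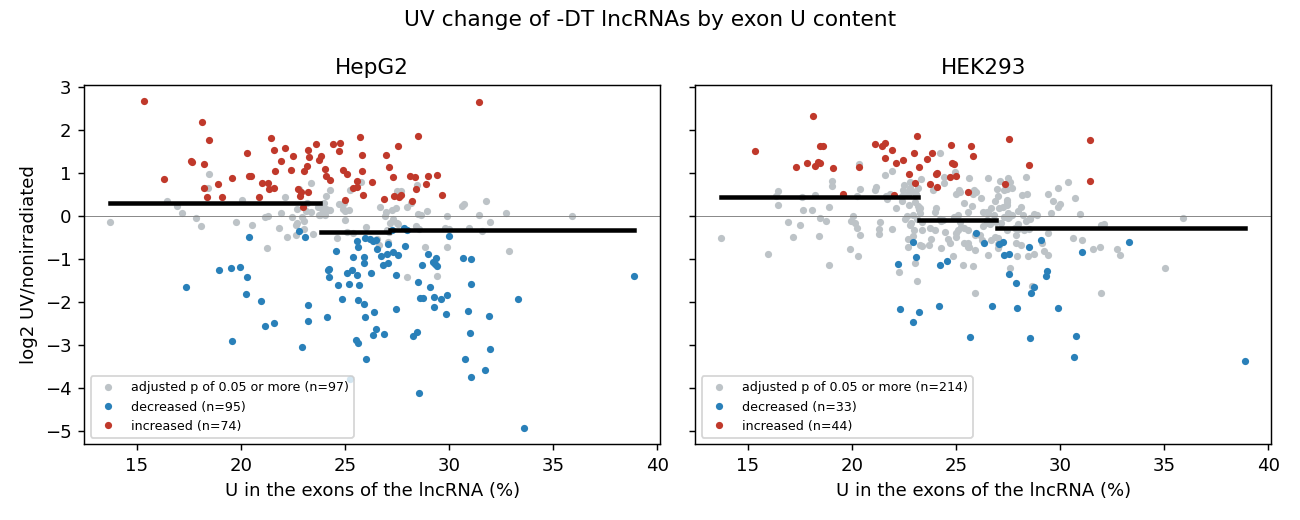
Log2 UV/nonirradiated (y axis) of the -DT lncRNAs tested in HepG2 (266) and HEK293 (291) against the share of U in their exons (x axis, %). Blue and red points passed the test as decreased or increased, and black lines give the median of each of the 3 groups of members. The medians of the low, middle and high group are 0.31, -0.38 and -0.32 in HepG2, so that the middle one is the lowest, and 0.44, -0.08 and -0.29 in HEK293.

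The third comparison sets the UV effect in HepG2 against that in HEK293. Over the 213 members tested in both lines, Spearman's ρ between the fold changes was 0.72, across members that share libraries within each line. Of the 31 members decreased in HEK293 and tested in both, 28 were decreased in HepG2, and of the 35 increased in HEK293, 31 were increased in HepG2. These are shares of 90.3% and 88.6%, against 86.2% and 93.7% over all genes called in HEK293 and tested in both. No member was called in opposite directions. A test of the difference itself, the interaction of line and UV over the 12 samples, passed for 12 of 344 members (3.49%), all with the lower effect in HepG2, and for 0 with the higher effect in HepG2. The background was 3.5% and 1.23% of 23830 genes. As 5 of the 12 were members through HepG2 alone and missed the level filter in HEK293, nothing is read from their direction. The interaction fit was scaled with TMM factors of its own, so its zero is not that of the per-line fold changes. The part of this scaling in the direction of the differences was not tested. Of the 213 members tested in both lines, 7 passed (3.29%), all lower in HepG2, against 4.55% lower and 1.63% higher of 16759 genes. These shares are near the background. At an unadjusted p below 0.05 the interaction passed for 60 of 344 members (17.4%), 12 of them higher in HepG2. The share of all genes at that threshold was not counted, so nothing is read from the 60. The count of 12 fell to 4, 6, 7, 5 and 5 without HEK293 UV sample 2 or 3 or HepG2 UV sample 1, 2 or 3. It rose to 26 with the replicate block, under which 2 members were higher in HepG2. The share of all genes was not counted under these settings.

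COX10-DT had the largest interaction among members with at least 2 CPM in both lines, at -1.48 ± 0.27 on the log2 scale (edgeR adjusted p = 0.00493, and at most 0.0423 with any 1 sample left out). It went from 5.31, 4.23 and 5.36 CPM to 1.39, 1.28 and 1.22 in HepG2 and from 8.11, 8.90 and 9.54 to 7.04, 6.38 and 4.31 in HEK293. The groups were apart in both lines, and the gap was the wider in HepG2. COX10, whose product acts in heme A synthesis for cytochrome oxidase, starts 1 base from the lncRNA. Its mRNA had log2 fold changes of 0.66 ± 0.09 and 0.43 ± 0.16. In HEK293 the calls of COX10-DT (-0.59 ± 0.22, edgeR adjusted p = 0.0473) and COX10 (adjusted p = 0.0495) were lost under several settings, among them DESeq2 with 0.0591 and 0.0734. COX10-DT lost it without sample 2 or 3 of either group (adjusted p up to 0.203) and COX10 without any 1 UV sample or nonirradiated sample 1 or 2 (up to 0.18).

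GATD1-DT and TMEM161B-DT followed. GATD1-DT was at 2.24, 2.04 and 1.84 CPM without and 2.23, 1.81 and 1.88 with UV in HepG2, and went from 1.78, 2.02 and 2.27 to 3.90, 5.10 and 5.31 in HEK293 (interaction -1.43 ± 0.29, edgeR adjusted p = 0.00928). TMEM161B-DT had log2 fold changes of -1.65 ± 0.14 in HepG2 and -0.56 ± 0.20 in HEK293 (interaction -1.24 ± 0.25, edgeR adjusted p = 0.00921). Both interactions were lost without UV sample 2 or 3 of either line, with adjusted p up to 0.0593 and 0.0719, and the HEK293 call of TMEM161B-DT (edgeR adjusted p = 0.0418) without any 1 sample but the nonirradiated sample 1 (0.0538 to 0.131). RAB30-DT passed as well, at -0.89 ± 0.22 (edgeR adjusted p = 0.0285), but in only 4 of the 12 fits without 1 sample, with values up to 0.158 without the HepG2 UV sample 2.

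**Figure D5:**
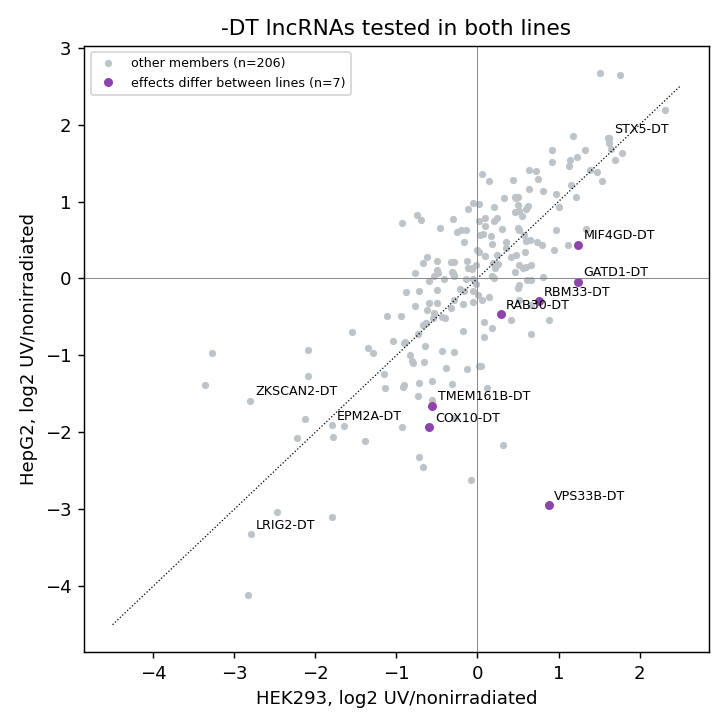
Log2 UV/nonirradiated in HepG2 (y axis) against HEK293 (x axis) for the 213 -DT lncRNAs tested in both lines. Each point is a member, purple points passed the interaction test (7 of the 12, as the other 5 were below 0.5 CPM in HEK293) and the dotted line marks equal effects. The purple points lie below the line.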

How the data were processed

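RNA left in the aqueous phase was sequenced from 12 human samples, and 12 mouse samples of the series were not used. Per the file headers and the submitters' processing notes, the authors aligned reads with TopHat2 2.1.1 to hg38 and deposited raw read counts per gene made with featureCounts (1.5.3 for HepG2, 1.6.1 for HEK293) on GENCODE 28. No strand option was set and reads were counted for all overlapping genes. The labels name a stranded kit and the study's methods an unstranded one. Symbols came from GENCODE 44, which matched 57754 gene IDs (98.93%).

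Counts were tested per line with edgeR 4.0.16 (quasi-likelihood, TMM, mean of at least 0.5 CPM in nonirradiated samples, Benjamini-Hochberg adjustment over all genes, threshold 0.05), with DESeq2 1.42.0 as an alternative. R 4.3.3 and Python 3.11.15 were used. The interaction was fitted over the 12 samples with TMM factors of their own, so its values can depart from the differences of per-line fold changes. Ratios used counts plus 0.5. Length and base content are of the merged exons. Floors cover counting error only.

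Members and lists were chosen with earlier results of these data known. Besides RAB30-DT, genes were named by rule: per line, among members of at least 2 CPM, the 6 largest changes each way that passed without overlap and the 4 widest pair differences each way, then the 6 highest RPKM and the 3 largest interactions each way. PIK3IP1-DT, RAB17-DT, CSTF3-DT, RBM33-DT, MIF4GD-DT and the members of the small partner classes were named after their values were seen.

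Same-numbered samples deviated together in HEK293 (r of 0.654, 0.368 and 0.461) and not in HepG2 (-0.01, 0.01 and -0.02). The values within a line are tied to one another, as given above. On simulated counts with 4-fold changes, 99% of 200 changed genes among 20078 were recovered in HepG2. In HEK293 it was 92.5% of 200 among 20525, and for the interaction 76.38% of 398 among 23870. Unchanged genes called were 14, 9 and 12. The simulation gave all genes the same spread (dispersion 0.05) and changed few of them. It held no composition shift and no link of same-numbered samples. The data differ in all of these, so the shares do not measure recovery there.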

Additional observations from a re-analysis of the deposited data

Results flagged for a closer look

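For 12 members the effect of UV differed between the lines by the interaction test (edgeR, 12 samples), and in each the log2 effect in HepG2 minus that in HEK293 was negative. These differences come from the interaction fit with its own TMM factors, so they do not equal the differences of the per-line fold changes given above. For COX10-DT the difference was -1.48, for GATD1-DT -1.43, for TMEM161B-DT -1.24, for RBM33-DT -1.20, for MIF4GD-DT -0.95 and for RAB30-DT -0.89. VPS33B-DT had -3.98 on 3 to 9 reads per HEK293 sample. The other 5 were below 0.5 CPM in nonirradiated HEK293, where their effect has almost no reads behind it: NDUFV1-DT had -6.73, PIK3IP1-DT -4.61, IL6ST-DT -4.39, RAB17-DT -4.0 and CSTF3-DT -3.51. Only IL6ST-DT, VPS33B-DT and COX10-DT passed in all 12 fits that left out 1 sample. RAB17-DT and RBM33-DT passed in 3, with adjusted p up to 0.113 without the HEK293 UV sample 2 and 0.114 without the HepG2 UV sample 1. HepG2 and HEK293 were read on different sequencers, so line and sequencer cannot be told apart, and the part of depth in these differences was not tested.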

How the results depend on the processing

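Library sizes alone moved the counts furthest. In HepG2 they gave 210 members decreased and 8 increased (median -1.38) and 254 and 24 mRNAs. In HEK293 they gave 112 and 9 members (median -0.77) and 212 and 23 mRNAs. By the interaction 43 members were lower in HepG2. The share of all genes was not counted for any of these counts. The shift follows from that scaling, which moves all genes down. It reversed the sign of 26 named values, in HepG2 RWDD3 (-1.04), RNASEH1 (-0.31), SPAG16 (-0.13), CAPN10 (-0.23), UBA6-DT (-0.90), KDM7A-DT (-0.82), GOT1 (-0.10), VPS33B (-0.50), MVP-DT (-0.43), MVP (-0.17), COX10 (-0.65), CEP192 (-1.16), PGLS-DT (-0.039) and TBC1D22A (-0.094), and in HEK293 RWDD3 (-0.25), RAB30-DT (-0.48), VPS33B (-0.23), MVP-DT (-0.25), COX10 (-0.34), FLVCR1-DT (-0.13), RNASEH1 (-0.69), CAPN10 (-0.38), UBA6-DT (-0.41), KDM7A-DT (-0.16), MVP (-0.25) and NQO1 (-0.088). Leaving out samples turned the sign of 3 values, none of which passed in the fit reported or without those samples: GATD1-DT in HepG2 (0.011 without UV sample 2), and in HEK293 CEP192 (0.12 without UV sample 1, 0.025 without nonirradiated sample 3, lowest -0.24 without nonirradiated sample 1) and RNASEH1 (-0.36 without UV sample 1, -0.017 and -0.073 without nonirradiated sample 2 or 3, -0.040 without both samples 1, highest 0.42 without nonirradiated sample 1).

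The members' median in HepG2 (-0.08) was -0.15 with DESeq2 and -0.15 with its size factors, -0.040 with no filter and -0.054 with the replicate block. The median pair difference there (-0.23) was -0.12 with 0.5 CPM over all samples and -0.16 with no filter. In HEK293 the filter over all samples gave a median of 0.039 and a pair difference of 0.11. The replicate block gave 56 and 68 members and a pair difference of 0.031 in HEK293. With it 26 interactions were lower and 2 higher in HepG2, without a count over all genes. The block gained 11 calls of named genes and lost none. Without both HEK293 samples numbered 1, chosen after seeing the data, the median was -0.051, the pair difference -0.016 and 1 interaction was higher, as with the filter over all samples (1). The cause of these moves was not tested.

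Restricted to genes that share no exon base, which leaves fewer genes, HepG2 gave 49 and 35 of 135 members (median -0.14), a pair difference of -0.35 and 34 lower and 26 higher ratios of 82 pairs, and HEK293 gave 15 and 27 of 154 (median -0.034), 0.098, and 20 and 31 of 104. The share of all genes was not counted under this restriction.

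Leaving out 1 sample gave 83 to 98 members decreased and 57 to 73 increased in HepG2 (median -0.15 to -0.091, pair difference -0.28 to -0.19), with 110 to 139 and 124 to 143 mRNAs and 114 to 122 lower and 71 to 73 higher ratios. In HEK293 it gave 17 to 36 and 30 to 50 members (median -0.064 to 0.025, pair difference -0.012 to 0.046), 96 to 114 and 72 to 100 mRNAs, and 67 to 86 lower and 84 to 94 higher ratios. It gave 4 to 12 interactions lower and 0 to 2 higher in HepG2. The share of all genes was not counted in the fits that left out a sample. In HEK293 153 of 291 members had a mean under 20 reads, and the part of depth was not tested.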
